A study of Arabidopsis thaliana with 9 samples.

Results

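The genes described here are the nuclear genes for the photosystem subunits, the light-harvesting antenna proteins and the small subunit of Rubisco in Arabidopsis thaliana. They were chosen by gene identifier as LHCB1 to LHCB6, LHCA1 to LHCA4, RBCS1A, RBCS1B, RBCS2B and RBCS3B, and the nuclear PSA and PSB subunit genes. That gave 44 of the 27206 genes in the deposited table, and all 44 passed the filter on low counts. They comprise 9 genes for the major antenna of photosystem II (LHCB1 to LHCB3), 5 for its minor antenna (LHCB4 to LHCB6), 4 for the antenna of photosystem I (LHCA1 to LHCA4), 4 for the Rubisco small subunit (RBCS), 12 for photosystem I subunits (PSA) and 10 for photosystem II subunits (PSB). The study sequenced polyadenylated RNA from leaves of wild-type plants of the Col-0 ecotype, grown in soil under short days. Per the labels, seeds of all groups spent 3 days at 4 °C, and all plants then grew at 23 °C by day and 19 °C by night and 45% humidity. Per the labels, leaves were harvested ahead of the wound (here called before wounding), at 30 min and at 60 min, each with 3 biological replicates. The samples include no unwounded leaves harvested beside the wounded ones at 30 and 60 min, so time after wounding and the hour of day cannot be told apart. The libraries from before wounding served both comparisons with later times, so those comparisons are not independent of each other.

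In leaves, antenna proteins bind chlorophyll and pass light energy to the reaction centres of photosystems I and II, and Rubisco fixes carbon dioxide with large subunits made in the chloroplast and small subunits made from nuclear genes. The nuclear messages for these proteins are among the most abundant of a green leaf, and their transcription is known to respond to light, to the circadian clock and to signals from the chloroplast. Several of the families consist of near-identical copies, so the values of single copies are given beside those of their family.

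The clearest change among the members was in a single Rubisco gene, RBCS1B (AT5G38430), which fell at both times after wounding. It lies on the minus strand of chromosome 5 in a row with RBCS2B (AT5G38420) and RBCS3B (AT5G38410), with 1095 bases between RBCS1B and RBCS2B and 2264 bases between RBCS2B and RBCS3B. RBCS1A (AT1G67090), the most abundant copy, lies on chromosome 1. The coding sequences of RBCS1B and RBCS2B were 97.3% identical, RBCS1B and RBCS3B were 96.7% identical, and RBCS1A shared 90.1% to 90.5% with the other copies. The first 150 coding bases of the 4 genes are shown because they let the copies be told apart: capitals mark the 30 positions at which the 4 copies are not all the same. All sequences are from the RefSeq annotation of TAIR10.1 and are written on the minus strand, 5′ to 3′.
RBCS1B chr5:15385006-15385155: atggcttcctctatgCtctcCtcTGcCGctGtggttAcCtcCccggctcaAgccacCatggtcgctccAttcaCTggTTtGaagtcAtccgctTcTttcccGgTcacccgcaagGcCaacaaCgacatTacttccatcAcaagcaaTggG
RBCS2B chr5:15381829-15381978: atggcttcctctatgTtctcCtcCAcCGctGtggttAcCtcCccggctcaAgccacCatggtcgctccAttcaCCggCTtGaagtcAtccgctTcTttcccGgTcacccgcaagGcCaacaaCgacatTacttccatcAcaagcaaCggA
RBCS3B chr5:15378157-15378306: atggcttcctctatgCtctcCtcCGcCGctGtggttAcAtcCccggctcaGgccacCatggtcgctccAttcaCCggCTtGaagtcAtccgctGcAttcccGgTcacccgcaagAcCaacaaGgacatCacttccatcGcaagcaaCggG
RBCS1A chr1:25049100-25049249: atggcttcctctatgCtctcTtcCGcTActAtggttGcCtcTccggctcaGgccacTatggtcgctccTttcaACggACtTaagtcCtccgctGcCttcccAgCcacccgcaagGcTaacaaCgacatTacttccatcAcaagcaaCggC
In this stretch RBCS2B differed from RBCS1B at 7 positions, RBCS3B at 12 and RBCS1A at 23. Over their exons, 88.5% of the 50-base stretches of RBCS1B, 84.8% of those of RBCS2B and 85.4% of those of RBCS3B occur once in the genome, as do all of those of RBCS1A. Reads from the remaining stretches could have been split among the copies, and the handling of reads with several matches is not given in the sources used here.

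The sequence before each gene of the row was also read, because RBCS1B had by far the largest log2 change of the row, as given further on. Each line below gives the 250 bases before the annotated gene start. Capitals mark CACGTG (G-box), GATAAG (I-box), AATATCT (the core of the evening element) and CCAAT, each on either strand.
RBCS1B chr5:15385321-15385570: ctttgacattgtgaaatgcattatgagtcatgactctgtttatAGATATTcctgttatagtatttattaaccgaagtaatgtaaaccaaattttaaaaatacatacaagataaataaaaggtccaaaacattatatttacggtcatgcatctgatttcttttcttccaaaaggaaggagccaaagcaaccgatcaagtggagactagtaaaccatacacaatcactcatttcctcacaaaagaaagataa
RBCS2B chr5:15382072-15382321: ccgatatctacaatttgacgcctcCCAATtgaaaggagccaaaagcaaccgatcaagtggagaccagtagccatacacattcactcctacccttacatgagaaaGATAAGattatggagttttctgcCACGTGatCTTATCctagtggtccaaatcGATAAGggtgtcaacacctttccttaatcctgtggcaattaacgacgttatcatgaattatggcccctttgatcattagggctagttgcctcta
RBCS3B chr5:15378643-15378892: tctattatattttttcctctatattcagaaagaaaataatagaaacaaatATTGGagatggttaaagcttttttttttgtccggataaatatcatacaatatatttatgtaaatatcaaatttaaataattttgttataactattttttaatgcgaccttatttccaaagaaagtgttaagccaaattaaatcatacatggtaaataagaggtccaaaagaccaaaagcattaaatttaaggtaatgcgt
Along these windows RBCS1B shared 49.1% of aligned bases with RBCS2B and 54.2% with RBCS3B. The RBCS2B window held 1 G-box, at -123 from the annotated start, 3 I-boxes and 1 CCAAT. The RBCS1B window held neither a G-box nor an I-box and had 1 evening element core, at -207. The RBCS3B window held 1 CCAAT, at -200, and none of the other marked motifs, so it also lacked a G-box and an I-box. The window of RBCS1A, not shown, held none of the marked motifs. GGTTAA, counted further on and not marked here, occurred in the RBCS1B and RBCS3B windows. RefSeq places the annotated start 165 bases before the start codon in RBCS1B, 93 bases before it in RBCS2B and 336 bases before it in RBCS3B, so the windows are not at equal distances from the coding sequence.

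The table held 0 genes of the chloroplast or mitochondrial genome, so all shares are of nuclear counts. Total counts were 14300929 in replicate 1 at 30 min and 22072126 to 22970735 in the other 8 libraries. In each of the 9 libraries, the 10 genes with the most counts were all members. The members took 38.15%, 41.44% and 41.1% of all counts before wounding, 39.14%, 40.37% and 37.1% at 30 min, and 39.14%, 35.53% and 39.15% at 60 min. Group means were 40.23% ± 1.81, 38.87% ± 1.65 and 37.94% ± 2.09 (SD, n = 3), and the groups overlapped. The Rubisco small-subunit share was 10.11% ± 0.367 before wounding, 8.475% ± 1.085 at 30 min and 7.466% ± 1.157 at 60 min (SD, n = 3). The major antenna of photosystem II held 15.68% ± 1.62, 15.3% ± 0.421 and 16.16% ± 0.968, with no such order.

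**Figure D1:**
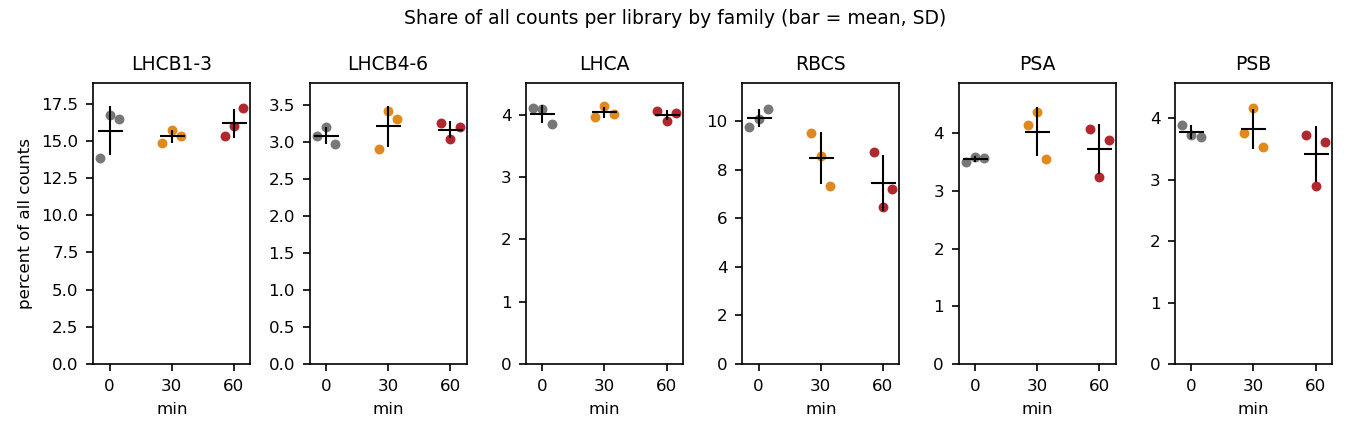
Share of all counts (percent, y axis) taken by each of the 6 families in each library, at 0, 30 and 60 min (x axis). Points are libraries and bars are the mean and SD of 3. The RBCS share averaged 10.11%, 8.475% and 7.466% at 0, 30 and 60 min, and the LHCB1-3 share 15.68%, 15.3% and 16.16%.

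Levels were compared between genes as CPM (counts scaled to a common library total) per kilobase of annotated exon, averaged over the 3 libraries from before wounding. RBCS1A was first at 61147 CPM per kb, followed by LHCB1.3 at 49844, LHCB1.5 at 30160, LHCB1.1 at 20356 and RBCS2B at 15837. LHCB4.3, a minor antenna gene, was last at 51.1 CPM per kb. The same 5 genes led, and LHCB4.3 was last, when coding length was used in place of exon length.

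Differences between times were tested with edgeR's quasi-likelihood test over 17622 genes, with p-values adjusted by the Benjamini-Hochberg method, and a gene was called where its adjusted p was under 0.05. Here "rose" and "fell" are used of called genes. At 30 min against before wounding, 0 members rose and 1 fell, whereas 14.5% of all genes tested were called higher and 13.4% lower. At 60 min against before wounding, 0 members rose and 6 fell, which is 13.6% of the members, beside 32.4% of all genes called, 17.1% higher and 15.3% lower. The 6 were RBCS1A, RBCS1B, RBCS2B, LHCB4.3, PSBS and PSBQ1. At 60 min against 30 min, 0 members were called by edgeR, 4 had an unadjusted p under 0.05, and 2.02% of all genes were called, 1.3% lower. In that comparison 0 members had groups that did not overlap, against 8.03% of all genes with every 60 min library lower and 8.18% with every one higher. An F test for any difference among the 3 times called 3 members, RBCS1B, PSBS and RBCS2B, and 32.1% of all genes. The share of members called lower was thus near or below that of all genes, and the absence of any member called higher stood beside 14.5% and 17.1%.

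Most members moved little, and the direction at 60 min was mostly downward. The median log2 change of the 44 members was -0.02 at 30 min and -0.20 at 60 min, beside 0.02 and 0.06 for all genes tested. At 30 min, 24 members lay below 0 and 20 above; at 60 min, 39 lay below 0 and 5 above. Both splits moved with single libraries: without replicate 2 at 30 min, 40 lay below 0 and 4 above at 30 min, and without replicate 2 at 60 min, 33 lay below and 11 above at 60 min. The 95% interval of the change lay within 2-fold in either direction for 43 members at 30 min and for 38 at 60 min. For all 17622 genes tested the numbers were 8775 and 8375. It lay within 1.5-fold for 27 members at 30 min and for 18 at 60 min. At 60 min, 17 members (38.6%) had all 3 libraries below all 3 from before wounding, against 22.5% of all genes, and 1 member had all 3 above, against 24.8% of all genes. At 30 min the corresponding counts were 3 members below, against 21.5% of all genes, and 1 above, against 21.8%. With fewer cells of a type, or with less RNA of these genes per cell, a bulk sample gives the same value, and the 2 cannot be told apart here.

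One library, replicate 2 at 60 min, stood apart. In it 40 of the 44 members had their lowest value of the 9 libraries, and the median member lay 0.54 below the before-wounding mean on the log2 CPM scale, against 0.13 below in replicate 1 and 0.06 below in replicate 3 at 60 min. This library also had the highest TMM scaling factor, 1.196 beside 0.887 to 1.087 in the others, and a higher factor lowers CPM. Before such scaling, members took 35.53% of its counts and the major photosystem II antenna 15.98%. The means before wounding were 40.23% and 15.68%. The part of scaling in its low values was not tested. Replicate 2 at 30 min stood the other way, with 27 members at their highest of the 9 libraries. Without replicate 2 at 60 min, the median change of the members at 60 min was -0.10 and 2 members were called lower, RBCS1B and PSBS. The number with every remaining 60 min library below the before-wounding libraries was then 16, or 36.4%, beside 28% of all genes, and the number with every one above them was 5, beside 29.4% of all genes. Without replicate 2 at 30 min, the median at 30 min was -0.17 and RBCS1B was again the 1 member called. The number with both remaining 30 min libraries below those from before wounding was then 15, or 34.1%, beside 27.2% of all genes, where it had been 3 with all libraries.

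**Figure D2:**
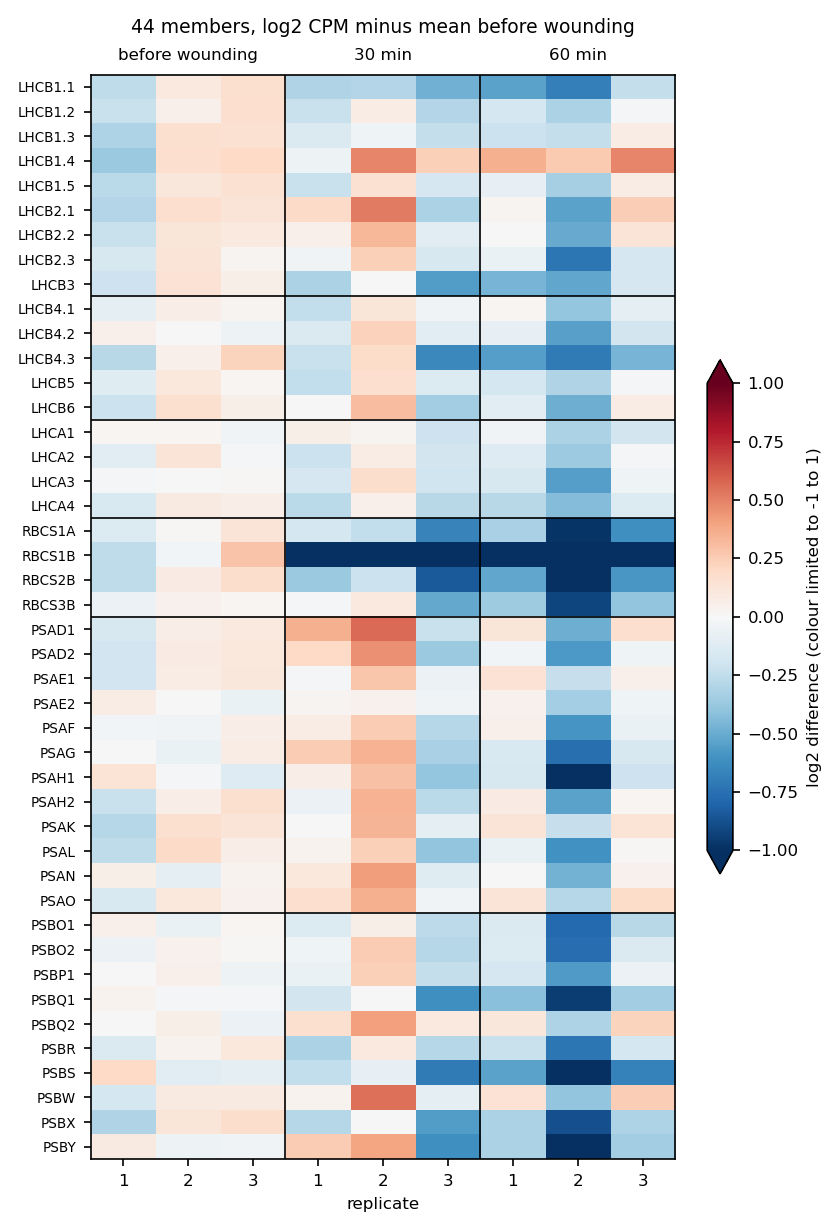
Log2 CPM of each member (rows, by family) in each library (columns), minus its mean over the libraries from before wounding; blue is lower and red is higher, and colours stop at -1 and 1. Replicate 2 at 60 min holds the lowest value of 40 of the 44 members, and RBCS1B is low in all 6 libraries after wounding.

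**Figure D3:**
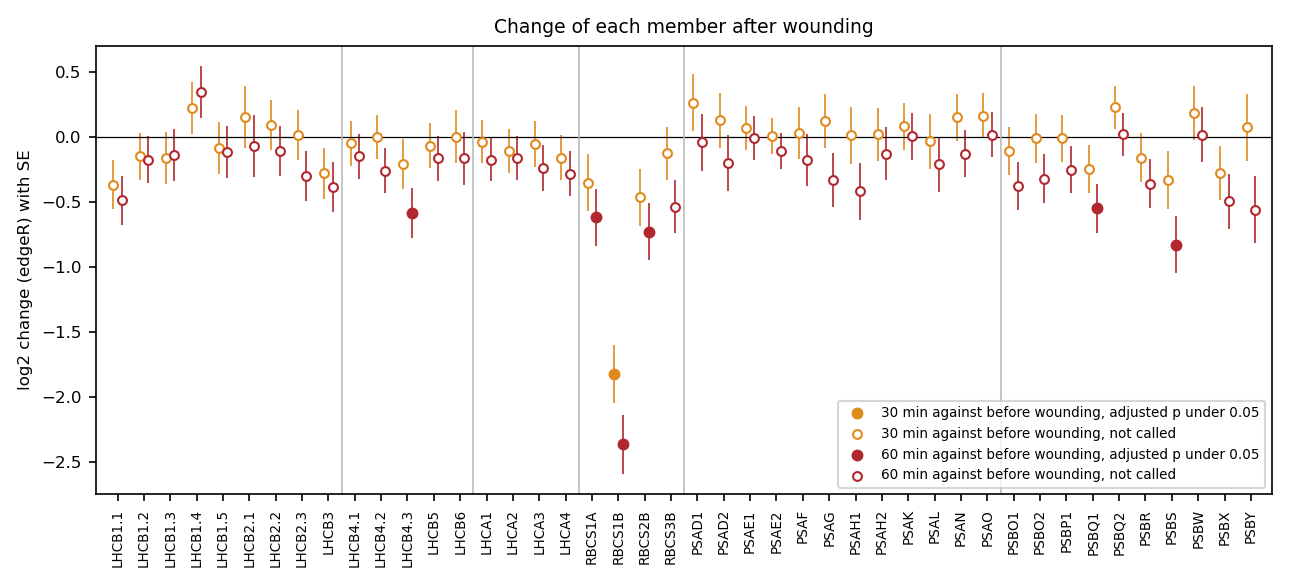
Log2 change of each member at 30 min and at 60 min against before wounding (y axis, edgeR, bars are SE), by family along the x axis; filled points are called at an adjusted p under 0.05. RBCS1B reaches -1.82 and -2.37, while no other member goes below -0.83.

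Among the Rubisco small-subunit genes, 1 of 4 fell by 30 min and 3 of 4 had fallen by 60 min, beside 13.4% and 15.3% of all genes called lower. Without replicate 2 at 60 min, 1 of 4 was called lower at 60 min. RBCS1B measured 1951, 2283 and 2834 CPM before wounding, 834, 658 and 508 CPM at 30 min, and 563, 349.97 and 458 CPM at 60 min. The highest library after wounding, at 834 CPM, was far below the lowest from before it, at 1951 CPM, and the 30 and 60 min groups overlapped. Relative to before wounding its log2 change reached -1.82 by 30 min (SE 0.224, adjusted p = 5.07e-05). By 60 min it was -2.37 (SE 0.228, adjusted p = 6.07e-06). Without replicate 2 at 60 min the change at 60 min was -2.21 (adjusted p = 9.54e-06).

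RBCS1A, which carries most of the Rubisco small-subunit message, measured 70269.7, 77900.4 and 84434 CPM before wounding, 68274, 65244 and 48784 CPM at 30 min, and 61692, 39222 and 50578 CPM at 60 min. All libraries after wounding lay below those from before it. The log2 change at 60 min was -0.62 (SE 0.221, adjusted p = 0.0467), and it was -0.47 (adjusted p = 0.132) without replicate 2 at 60 min. RBCS2B, the middle gene of the chromosome 5 row, measured 12304, 15561 and 16557 CPM before wounding, 11358, 12639 and 8196 CPM at 30 min, and 10239.5, 6773 and 9818 CPM at 60 min. The 60 min libraries were all below those from before wounding and the 30 min libraries overlapped them. Its log2 change at 60 min was -0.73 (SE 0.219, adjusted p = 0.0212), and -0.56 (adjusted p = 0.0695) without that library. RBCS3B measured 13884, 14874 and 14636 CPM before wounding, 14232, 15465 and 10154 CPM at 30 min, and 11315, 7644 and 10979 CPM at 60 min. Its 60 min libraries were also all below those from before wounding, but its log2 change of -0.54 (SE 0.206, adjusted p = 0.0617) was not called.

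Shares within the family do not depend on how libraries are scaled, so they show how RBCS1B moved relative to the other copies. RBCS1B made up 1.983%, 2.064% and 2.393% of the RBCS counts before wounding, 0.8804%, 0.7003% and 0.7507% at 30 min, and 0.6718%, 0.6482% and 0.6379% at 60 min. Its 3 groups did not overlap. Each pair gave p = 0.1 in a two-sided exact permutation test, the smallest value that 3 against 3 libraries allow. RBCS1B was singled out by its change in these same libraries, so that test gives no separate support. RBCS1A held 71.03% ± 0.534, 71.21% ± 1.56 and 72.22% ± 1.64 of the RBCS counts at the 3 times (SD, n = 3). RBCS3B held 13.3% ± 0.885 before wounding, 15.5% ± 0.826 at 30 min and 14.31% ± 0.902 at 60 min, and RBCS2B held 13.52% ± 0.878, 12.52% ± 0.805 and 12.81% ± 0.761. All RBCS3B shares at 30 min lay above those from before wounding. Within the row on chromosome 5 alone, the share of RBCS1B was 7.413% ± 0.794, 2.712% ± 0.434 and 2.357% ± 0.195. There the RBCS1B shares at 30 and 60 min overlapped (exact permutation test, p = 0.3). RBCS3B held 45.94% ± 3.19, 53.82% ± 0.0497 and 51.53% ± 0.321 of the row at the 3 times, and its groups did not overlap. When the counts of the 3 genes of the row were added before the fit, the sum was not called at 30 min (log2 change -0.36, SE 0.218, adjusted p = 0.248). It was called at 60 min (log2 change -0.71, SE 0.219, adjusted p = 0.0244).

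**Figure D4:**
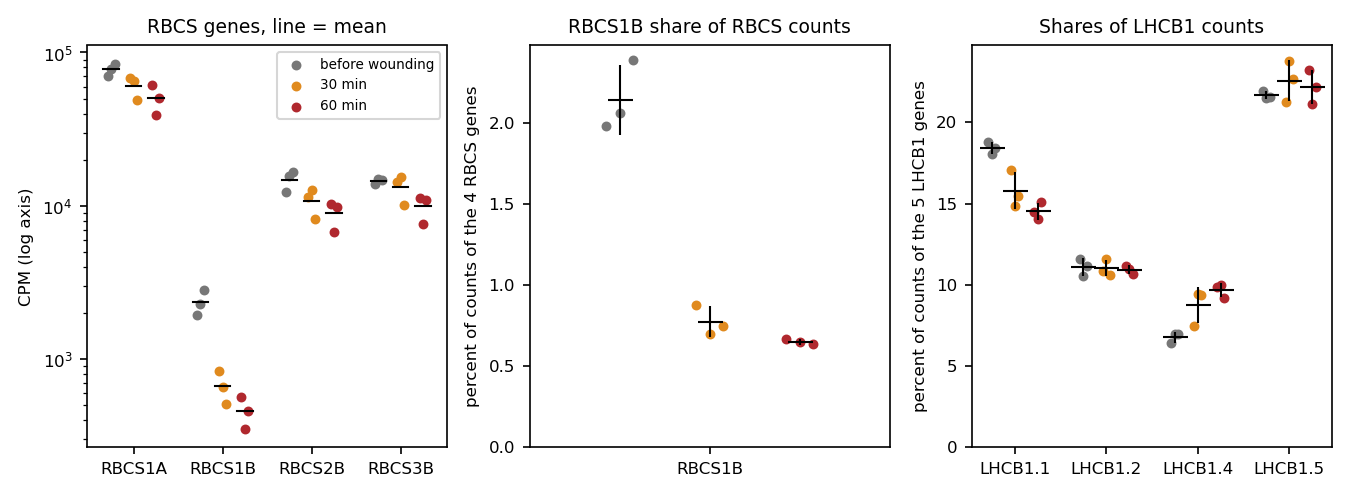
Left, CPM (log axis) of the 4 RBCS genes in each library at the 3 times, with lines at the means; middle, RBCS1B as a percentage of RBCS counts; right, 4 of the 5 LHCB1 genes as percentages of LHCB1 counts, with bars for mean and SD of 3. RBCS1B held 2.146%, 0.7771% and 0.6526% of RBCS counts before wounding, at 30 min and at 60 min, and LHCB1.4 held 6.788%, 8.777% and 9.689% of LHCB1 counts.

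Of the 9 genes for the major photosystem II antenna, whose products form the trimers that hold most of the leaf's chlorophyll, 0 rose and 0 fell at either time. At 30 and 60 min, 28% and 32.4% of all genes were called. Their log2 changes at 60 min ran from -0.49 for LHCB1.1 to 0.35 for LHCB1.4. LHCB1.3 (AT1G29930), the most abundant of them, measured 48860.1, 67657 and 67408 CPM before wounding, 54789, 58726 and 51412 CPM at 30 min, and 52369.5, 51474 and 63788 CPM at 60 min, with groups that overlapped. LHCB1.1 (AT1G29920) measured 22238, 28382 and 29624 CPM before wounding, 21578, 21625 and 19013.5 CPM at 30 min, and 18361, 16506 and 22461 CPM at 60 min. Its 30 min libraries were all below those from before wounding and its 60 min libraries overlapped them, with a log2 change at 60 min of -0.49 (SE 0.190, adjusted p = 0.0662). LHCB1.4 (AT2G34430) was the 1 member whose 60 min libraries were all above those from before wounding: it measured 7571, 10987 and 11260.3 CPM before wounding, 9469, 13752 and 11549 CPM at 30 min, and 12492, 11749 and 13707 CPM at 60 min. The log2 change at 60 min was 0.35 (SE 0.201, adjusted p = 0.207), and it was not called.

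Shares were also read within LHCB1, where LHCB1.4 and LHCB1.1 had been named for the highest and lowest change of the family and neither was called. LHCB1.4 made up 6.788% ± 0.342 of LHCB1 counts before wounding, 8.777% ± 1.12 at 30 min and 9.689% ± 0.419 at 60 min (SD, n = 3). LHCB1.1 made up 18.4% ± 0.380, 15.8% ± 1.14 and 14.54% ± 0.524. For both genes the shares at 30 and at 60 min did not overlap those from before wounding (two-sided exact permutation test, p = 0.1, the smallest possible). Both genes were picked by their changes in these same libraries, so that test gives no separate support. LHCB1.3 held 42.03%, 41.83% and 42.67% on average, LHCB1.5 held 21.67%, 22.57% and 22.18%, and LHCB1.2 held 11.11%, 11.02% and 10.93%, all with overlapping groups. Of the 50-base stretches of the exons, 79.5% occur once in the genome for LHCB1.1, 89.4% for LHCB1.2, 83.0% for LHCB1.3, 86.3% for LHCB1.4 and 82.7% for LHCB1.5, so these shares are uncertain as far as reads were split among copies. LHCB1.1 and LHCB1.4 lie on different chromosomes, 1 and 2, and their coding sequences are 86.8% identical. The sum of the 5 LHCB1 genes was not called (log2 change -0.15 at 60 min, SE 0.215, adjusted p = 0.625). LHCB2.1, LHCB2.2, LHCB2.3 and LHCB3, for the other proteins of the trimers, had log2 changes between -0.38 and -0.07 at 60 min and 0 of the 4 were called. In LHCB2.1 and LHCB2.2, 78.1% and 71.8% of 50-base stretches occur once in the genome, so their separate counts are uncertain in the same way.

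Of the 5 minor antenna genes, whose products link the trimers to the photosystem II core, 1 fell, at 60 min, when 15.3% of all genes were called lower. LHCB4.3 (AT2G40100) measured 60.5, 76.0 and 85.3 CPM before wounding, 62.7, 83.0 and 46.7 CPM at 30 min, and 49.9, 44.9 and 53.2 CPM at 60 min. The 60 min libraries were all below those from before wounding, with a log2 change of -0.58 (SE 0.195, adjusted p = 0.0347), which was -0.52 (adjusted p = 0.0934) without replicate 2 at 60 min. LHCB5 (AT4G10340), the most abundant of the 5, measured 12228, 14334 and 13506 CPM before wounding, 11252.5, 14933.5 and 12105 CPM at 30 min, and 11788, 10792 and 13179 CPM at 60 min, and its groups overlapped. LHCB4.1 (AT5G01530) measured 10420.3, 11602 and 11290.1 CPM before wounding, 9354, 12092 and 10828.5 CPM at 30 min, and 11246, 8486 and 10346 CPM at 60 min. Its groups overlapped, and its change at 60 min was the smallest of the 5, at -0.15 on the log2 scale (SE 0.174, adjusted p = 0.553). LHCB4.2 and LHCB6 were at -0.26 and -0.16 and were not called.

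Of the 4 photosystem I antenna genes, 0 were called at either time, beside 28% of all genes at 30 min and 32.4% at 60 min. LHCA4 (AT3G47470), the most abundant, measured 12807, 15165 and 14934 CPM before wounding, 11838, 14798 and 11785 CPM at 30 min, and 11772.5, 10554 and 12996 CPM at 60 min. Its groups overlapped at both times, with a log2 change of -0.28 at 60 min (SE 0.174, adjusted p = 0.24). LHCA2 (AT3G61470), at the other end of the family, measured 7318, 8603 and 7744 CPM before wounding, 6781, 8273 and 6915 CPM at 30 min, and 7209, 6132 and 7826 CPM at 60 min, with overlapping groups and a log2 change of -0.16. LHCA1 and LHCA3 were at -0.17 and -0.24. The family's share of all counts was 4.019%, 4.039% and 3.997% at the 3 times.

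None of the 12 photosystem I subunit genes was called, beside 28% of all genes at 30 min and 32.4% at 60 min. At 30 min 11 of 12 had a log2 change above 0 and at 60 min 10 of 12 had one below 0. At 30 min, 10 of 12 lay below 0 without replicate 2 of that time, with a median of -0.05 in place of 0.08. At 60 min, 6 of 12 lay below 0 without replicate 2 of that time, with a median of 0.01 in place of -0.13. PSAF (AT1G31330), for the subunit to which plastocyanin docks, was the most abundant. It measured 7969.6, 7966 and 8509 CPM before wounding, 8579, 9706 and 6682 CPM at 30 min, and 8421, 5413.0 and 7795 CPM at 60 min, and its groups overlapped. PSAO (AT1G08380), for a subunit on the side where antenna from photosystem II can dock, measured 3081, 3687 and 3519 CPM before wounding, 3835.5, 4375 and 3329 CPM at 30 min, and 3745, 2805 and 3877 CPM at 60 min, a log2 change of 0.02 at 60 min (SE 0.174, adjusted p = 0.946). PSAH1 (AT3G16140), 1 of a pair of genes for another subunit of that side, had the lowest change of the family. It measured 500.2, 453 and 418 CPM before wounding, 478, 558 and 349 CPM at 30 min, and 407, 227 and 394 CPM at 60 min, a log2 change of -0.42 (SE 0.219, adjusted p = 0.168). Its 60 min libraries lay just under those from before wounding, except for replicate 2, which was far lower. PSAD1 and PSAD2, PSAE1 and PSAE2, all for subunits of the stromal side where ferredoxin docks, ran from -0.20 to -0.01 at 60 min. PSAG, PSAH2, PSAK, PSAL and PSAN ran from -0.33 to 0.01.

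Of the 10 photosystem II subunit genes, 2 fell by 60 min, and 8 had all 60 min libraries below those from before wounding, where 15.3% and 22.5% of all genes did so. When replicate 2 at 60 min was left out, 1 of the 10 was called and the family's median was -0.21 in place of -0.37. PSBS (AT1G44575), whose protein triggers the dissipation of excess light energy as heat, measured 2628, 2112 and 2146 CPM before wounding, 1925, 2153 and 1397 CPM at 30 min, and 1575, 879 and 1428 CPM at 60 min. The 30 min libraries overlapped those from before wounding and the 60 min libraries did not. At 30 min its log2 change of -0.33 (SE 0.221, adjusted p = 0.296) was not called. At 60 min it was -0.83 (SE 0.222, adjusted p = 0.0118), or -0.61 (adjusted p = 0.0351) without replicate 2. PSBQ1 (AT4G21280), for an extrinsic protein of the oxygen-evolving complex, was named after its value was seen. It measured 1191, 1146 and 1143 CPM before wounding, 1019, 1156 and 759.6 CPM at 30 min, and 869, 600.7 and 909.8 CPM at 60 min, with a log2 change at 60 min of -0.55 (SE 0.188, adjusted p = 0.0387). Without replicate 2 at 60 min it was -0.38 (adjusted p = 0.142).

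The second gene for the same extrinsic protein, PSBQ2 (AT4G05180), differed from PSBQ1 in direction at 30 min: it measured 1655, 1721 and 1584 CPM before wounding, 1848, 2200.4 and 1767 CPM at 30 min, and 1783, 1334 and 1924 CPM at 60 min. All 30 min libraries were above those from before wounding, but the log2 change of 0.23 (SE 0.165, adjusted p = 0.334) was not called, and the difference between the 2 genes was not tested. PSBO1 (AT5G66570), for the manganese-stabilising protein and with the highest mean CPM of the family, though below PSBR and PSBX in CPM per kb, measured 9697, 8929 and 9493 CPM before wounding, 8518, 9740.0 and 7810.1 CPM at 30 min, and 8457, 5467 and 7734 CPM at 60 min. Its 60 min libraries were all lower, with a log2 change of -0.38 (SE 0.186, adjusted p = 0.14). PSBO2 and PSBP1, also for proteins of the oxygen-evolving complex, were at -0.32 and -0.25. PSBR, PSBW, PSBX and PSBY, small subunits, were at -0.36, 0.02, -0.49 and -0.56, and 0 of the 4 were called.

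Other genes of photosynthesis were followed in 7 lists with 82 genes, of which 81 were tested. By 30 min 2 of them rose and 22 fell, and by 60 min the numbers were 3 and 43, with median log2 changes of -0.28 and -0.46. Of all genes tested, 14.5% were called higher and 13.4% lower at 30 min, and 17.1% and 15.3% at 60 min. Without replicate 2 at 60 min, 27 fell at 60 min and the median was -0.36. The members' medians were -0.02 and -0.20. The chlorophyll breakdown list alone had a median closer to 0 than the members at 60 min, at 0.03. Of 16 Calvin cycle genes, 4 fell at 30 min and 13 at 60 min, and 7 without replicate 2 at 60 min. FBA1, for a chloroplast aldolase, fell at both times (log2 -1.07 and -1.40, adjusted p = 0.000414 and 4.53e-05). GAPA2, for a subunit of the chloroplast glyceraldehyde phosphate dehydrogenase, fell by 0.56 and 0.99 on the log2 scale (adjusted p = 0.0362 and 0.00116).

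Of 16 chlorophyll synthesis genes, 6 fell at 30 min and 10 at 60 min, and 6 at 60 min without replicate 2 of that time. Among all genes tested, 13.4% and 15.3% were called lower at 30 and 60 min, and 14.5% and 17.1% higher. CAO, for the enzyme that makes chlorophyll b, measured 513, 497 and 492 CPM before wounding, 292, 322 and 300.3 CPM at 30 min, and 246, 273 and 258 CPM at 60 min. Its groups did not overlap and its log2 changes were -0.72 and -0.95 (adjusted p = 0.000721 and 7.35e-05). HEMA1, for glutamyl-tRNA reductase at the head of the pathway, had log2 changes of -0.76 and -1.26 (adjusted p = 0.00338 and 7.46e-05). Of 8 tested genes of the chlorophyll breakdown list, 2 rose and 1 fell at 30 min, and 3 rose and 2 fell at 60 min. Those that rose at 60 min were PAO (log2 0.72), PPH (0.88) and CLH1 (0.85), for enzymes that act on chlorophyll or its breakdown products. PAO and PPH were named after their values were seen. At 60 min, 4 of the 8 tested genes of this list lay below 0 and 4 above. CLH2, a relative of CLH1, fell at both times (log2 -1.81 and -1.39, adjusted p = 0.00212 and 0.00817).

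Of 14 genes for electron transport and the ATP synthase, 2 fell at 30 min and 4 at 60 min, or 2 at 60 min without replicate 2 of that time. Over all genes tested, 13.4% were called lower at 30 min and 15.3% at 60 min, so the 2 of 14 at 30 min was near that share. FD1, for a minor leaf ferredoxin, measured 462, 391 and 475 CPM before wounding, 265, 242 and 154 CPM at 30 min, and 177, 109.8 and 164 CPM at 60 min. All libraries after wounding were lower, with log2 changes of -1.01 and -1.56 (adjusted p = 0.00317 and 0.000125). PGR5, of cyclic electron flow, was at -0.56 and -0.78 (adjusted p = 0.013 and 0.00134). Of 8 less abundant antenna and photosystem proteins, 1 fell at 30 min and 5 at 60 min, or 3 without that library. PSB28 fell at both times (log2 -0.71 and -0.98, adjusted p = 0.00423 and 0.000382), and LHCA6, which links photosystem I to the NDH complex, was at -0.31 and -0.86 (adjusted p = 0.21 and 0.00226).

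Of 11 regulators of photosynthesis genes, 6 fell at 30 min and 5 at 60 min, and 0 rose. The shares of all genes called lower at those times were 13.4% and 15.3%. SIG5, a nuclear-encoded sigma factor of the chloroplast RNA polymerase, measured 64.0, 71.5 and 69.1 CPM before wounding, 23.9, 33.3 and 28.6 CPM at 30 min, and 18.4, 15.5 and 20.3 CPM at 60 min. None of the groups overlapped, and its log2 changes were -1.25 and -1.92 (adjusted p = 6.09e-05 and 1.83e-06). SIG1, another sigma factor, was at -0.89 and -1.19 (adjusted p = 0.000617 and 5.82e-05). The transcription factors GLK1 and GLK2, which activate antenna and chlorophyll synthesis genes, were at -0.80 and -0.96 at 30 min (adjusted p = 0.0013 and 0.000339) and at -0.58 and -0.53 at 60 min (adjusted p = 0.00976 and 0.0146). They were named after their values were seen. Of 8 genes for antenna insertion and light stress proteins, 2 fell at 30 min and 4 at 60 min, or 3 without replicate 2 of that time. The early light-induced proteins showed the largest changes of the 7 lists: ELIP2 had log2 changes of -2.30 and -2.69 (adjusted p = 6.08e-05 and 1.71e-05) and ELIP1 -2.11 and -2.44 (adjusted p = 0.000219 and 6.38e-05).

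**Figure D5:**
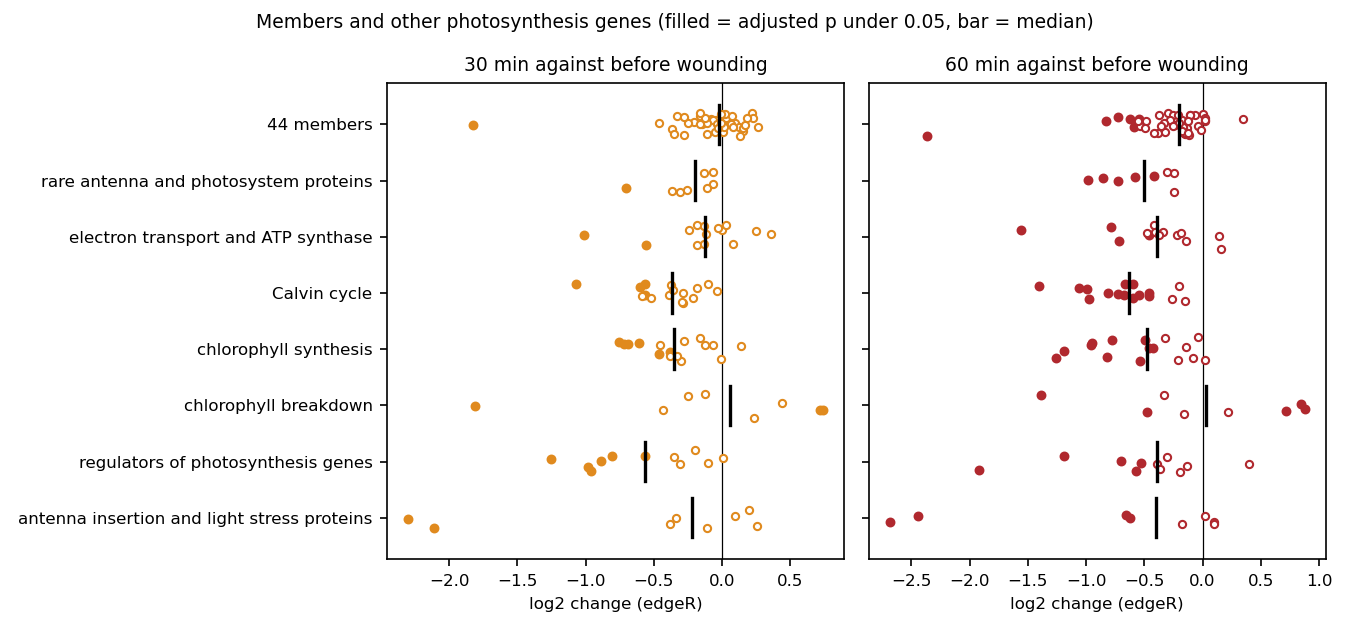
Log2 change (x axis, edgeR) of each gene of the 44 members and of the 7 other lists, at 30 min (left) and 60 min (right) against before wounding; filled points are called at an adjusted p under 0.05 and bars are medians. At 60 min 13 of 16 Calvin cycle genes are called lower, beside 6 of the 44 members.

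Markers of cell types in the leaf were read beside these values. Of 5 guard cell markers, 4 rose at both times, among them FAMA (log2 1.37 and 1.41) and HT1 (1.75 and 1.88). The 1 not called had a log2 change of -0.32 at 30 min, with all 30 min libraries below those from before wounding. At 60 min the marker not called was at -0.01. Over all genes tested, 14.5% were called higher at 30 min and 17.1% at 60 min. The level summed over the 5 guard cell markers ranged over 40.1-43.0 CPM before wounding, 63.7-67.4 CPM at 30 min and 68.4-81.3 CPM at 60 min. Of 5 epidermis markers, CER6 rose at both times (log2 0.99 and 1.26), and the other 4 (ATML1, FDH, KCS2 and PDF1) were not called. The median of the 5 was 0.28 at 30 min and 0.04 at 60 min. CER6 alone measured 227-294 CPM at 60 min, and the sum over the 5 ranged over 255-279.9 CPM before wounding, 309-432 CPM at 30 min and 352-446 CPM at 60 min. Of 5 vascular markers, SWEET12 rose (log2 0.97 and 1.28) and SWEET11 fell (-0.67 and -0.53), and the sum ranged over 297-379 CPM before wounding, 221-352.5 CPM at 30 min and 255-292 CPM at 60 min. Of 4 root markers, 3 had 0 counts in every library. The part of cell composition in the members' changes was not tested.

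Motifs known from photosynthesis promoters were counted in the 250 bases before the annotated start of all 44 members and of 26665 other genes, on both strands. A G-box (CACGTG) was found in 9 members, or 20.5%, against 6.6% of the other genes. An I-box (GATAAG) was found in 22.7% of members against 12.2%, CCAAT in 63.6% against 46.1%, and CCAATC, which contains CCAAT, in 25.0% against 10.1%. GATTCT was found in 29.5% against 15.9%, AATCTA in 29.5% against 23.8%, GGTTAA in 18.2% against 14.7% and the evening element core (AATATCT) in 11.4% against 10.1%. All 9 major antenna genes held CCAAT, whereas 2 of the 10 photosystem II subunit genes did. In the 500 bases before the start codon, which include the 5′ leader, 22 of the 44 members held a G-box and 31 an I-box, against 9.3% and 23.5% of the other genes. Such matches describe letters and not sites in use.

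The pattern of each member over the libraries was compared with the mean of all members. Over the 9 libraries, Pearson's r of the log2 CPM of a member with the mean of all 44, which includes that member, was lowest for LHCB1.4, at 0.02. RBCS1B stood at 0.64 and RBCS3B at 0.95. The libraries share their depth and scaling and fall into 3 groups, so these values describe the pattern only. Outside the members and lists, the 5 genes most like the mean of the members over the 9 libraries were AT1G65720 (r = 0.99), RABE1b (AT4G20360, r = 0.98), AT1G04680 (r = 0.98), AT1G32470 (r = 0.98) and AT4G02580 (r = 0.97). RABE1b, for instance, measured 744, 849.6 and 888 CPM before wounding, 756, 881 and 589 CPM at 30 min, and 672, 504.7 and 752 CPM at 60 min. Like most members, it had its lowest value in replicate 2 at 60 min.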

How the data were processed

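The authors deposited raw counts, not normalized, with a row per gene and a column per library. Per the submitters' processing notes, FastQC 0.11.8, Trimmomatic 0.36, HISAT2 2.2.0, featureCounts and the TAIR10 build were used, and the strand setting, the annotation and the handling of reads with several matches are not given in the sources used here. Of the 44 members, 15 overlap a gene on the opposite strand. For 14 of them that gene was in the table, and it held at most 5.447% of the member's counts.

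Counts were fitted with edgeR 4.0.16 in R 4.3.3 (filterByExpr, minimum count 10; TMM scaling; glmQLFit, then glmQLFTest), with all 9 libraries fitted together and group as the only term. The filter left 17622 genes with 99.96% of the counts, and the common biological coefficient of variation was 0.217. CPM are relative to the TMM-scaled total, and the SE is the size of the log2 change over the square root of its F statistic. An interval covers 95%. Alternatives included DESeq2 1.42.0. The method was tested on simulated data. Sequences and gene names are from the TAIR10.1 RefSeq annotation, in which all 44 members and 26719 of the 27206 genes were found.

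Members and lists were chosen with earlier results of these data known. Named members were, per family, the one with the highest mean CPM and those with the highest and lowest change at 60 min, all RBCS genes, and from each list the 2 genes with the smallest F test p. Pairs of replicates differed beyond counting noise (chi-square per degree of freedom 6.91 to 41.1), so none was counted as a duplicate. Same-numbered replicates did not deviate together, with correlations from -0.37 to 0.16, so the numbers were not used to pair samples.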

Additional observations from a re-analysis of the deposited data

Results flagged for a closer look

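SIG5, a sigma factor of the chloroplast RNA polymerase, moved further between 30 and 60 min: its log2 change at 60 min against 30 min was -0.67 (edgeR, adjusted p = 0.048), so its changes against before wounding at those 2 times differed by a direct test. It was the 1 gene of the members and the 7 photosynthesis lists called in that comparison, in which 2.02% of all genes were called, and its 60 min libraries (18.4, 15.5 and 20.3 CPM) were all below its 30 min libraries (23.9, 33.3 and 28.6 CPM). The SIG5 call lay just under the threshold and was not repeated under other settings. Leaving out single libraries gave 161 to 480 genes called in that comparison.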

How the results depend on the processing

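At 60 min against before wounding, 6 members were called lower; 2 were with a replicate block (RBCS1B and PSBS), 1 at an adjusted p under 0.01, and 9 with DESeq2, among them LHCB1.1 (adjusted p = 0.0107) and RBCS3B (0.0175). The F test called 3 members, 1 with a replicate block, 1 at that threshold, 7 with DESeq2 and 1 with near-identical copies summed, where 0 were lower at 30 min. Scaling to library size alone called 1 member higher at 30 min and 1 at 60 min, moved the median of all genes at 60 min to 0.28 and put the members' median at 0.00. Scaling to the members' own total, chosen after seeing the data, called 5 higher and 2 lower at 30 min, 6 higher at 60 min and 7 in the F test, with a median of 0.083 at 60 min. A change of scaling moves all genes nearly alike, so the members' median relative to all genes could hardly move with it. Under 6 scalings the members' median at 60 min lay 0.26 to 0.29 below that of all genes. Without replicate 2 at 60 min, the medians at 60 min were -0.10 for the members and 0.01 for all genes. Leaving out single libraries gave 2 to 6 members lower at 60 min (2 without before wounding replicate 2, before wounding replicate 3 or 60 min replicate 2; 3 without 30 min replicate 1) and 1 to 5 in the F test (5 without 30 min replicate 3). Without the 20 most abundant other genes, members took 43.53%, 41.65% and 40.36% of counts at the 3 times. RBCS1B was called at both times under every alternative with separate copies. RBCS1A lost its call at 60 min in 6 of 9 fits that left out a library, PSBQ1 in 6, LHCB4.3 in 5, RBCS2B in 3 and PSBS in 0. At 30 min, GAPA2 lost its call in 6 such fits and PGR5 in 4. LHCB1.4 was called higher at 60 min with library size alone (adjusted p = 0.00663) and with the members' own total (0.00237). Of the separate gene results under other settings, 1184 kept their call status. These include 41 that differed in sign while called in neither fit. A further 17 gained a call and 41 lost one, and none of the called values reversed.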
